A study of Homo sapiens with 3 samples.

Results

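RBMS1 and 4 genes tied to it were followed through an RBMS1 knockdown in SW480, an established cell line from a human colon adenocarcinoma. The genes are RBMS1 itself, its paralogue RBMS2, the mRNA-stabilising factor ELAVL1, and AKAP12 and SDCBP, the transcripts that the study's published work named as RBMS1 targets. They were chosen by name, and every row that matched them in the table of log fold changes was taken, which gave 7 transcripts of 5 genes out of 20104 transcripts and 12582 genes. Total RNA was sequenced from 3 SW480 libraries, 48 hours after transduction with short hairpin RNA (shRNA). There were 2 libraries with control shRNA and 1 with a single hairpin against RBMS1, in otherwise like-treated cells of 1 line. The sources used here do not say if the control libraries share 1 hairpin or came from separate cultures.

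RBMS1 and RBMS2 are RNA-binding proteins with a pair of RNA recognition motifs that prefer A+U-rich sequence, AUAUA among it, often in the 3′ untranslated region (3′ UTR) of mRNAs. ELAVL1, also called HuR, binds U-rich and AU-rich stretches of 3′ UTRs and is known for protecting mRNAs from decay. Proteins of this kind set how long a transcript lasts, so the level of a bound mRNA can change without a change in transcription. AKAP12 (gravin) is a scaffold that holds protein kinase A and protein kinase C near the membrane and is known as a suppressor of tumour cell spread. SDCBP (syntenin) is an adaptor that binds the tails of syndecans and takes part in exosome formation.

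The A+U-rich sequence at issue is shown first, as windows of 30 bases from the 3′ UTRs of GENCODE 29 (hg38), written as DNA 5′ to 3′ on the transcript's strand with each ATATA in capitals. The only such site in the RBMS1 3′ UTR and both sites in the AKAP12 model linked to the measured transcript are given, with 3 further windows from a longer AKAP12 model, 1 from RBMS2 and 1 from ELAVL1 where matches overlap.
RBMS1, chr2:160273129-160273158, minus strand: ctactttagtacATATAagataattcactg
AKAP12, chr6:151355948-151355977, plus strand: cccttgataaccATATAaattctgatttaa
AKAP12, chr6:151356201-151356230, plus strand: taagcctcagttATATAacccacgaaaaac
AKAP12 longer model, chr6:151357574-151357603, plus strand: tgatagcagtgtATATATAgtcttgtttgt
AKAP12 longer model, chr6:151357625-151357654, plus strand: agttattctcaaATATATATAatagctacc
AKAP12 longer model, chr6:151357684-151357713, plus strand: aaaaaacctctgATATATATATATAatttt
RBMS2, chr12:56591764-56591793, plus strand: ctttctctctctATATATATAttttaaaat
ELAVL1, chr19:7963239-7963268, minus strand: atttcctttaagATATATAttaaacagaaa

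All 7 transcripts of the 5 genes lay below 0, that is lower in the knockdown. RBMS1 was lowest, AKAP12 and SDCBP followed with RBMS2, and ELAVL1 was nearest to control. The order of values in the authors' deposited table, as log2 fold changes of knockdown over control, ran from −1.62 to −0.27. Transcripts below 0 made up 48.3% of the table. Neither the log base nor the direction of the ratio is given with the values. Base 2 was inferred from repeated values, and every percent of control here rests on it. RBMS1, as the knocked-down gene, was taken to be lower, and with the opposite direction all signs here would be reversed. With 1 knockdown library and 1 value per transcript there is no replicate check and no test, and since no levels of single libraries were analysed, the depth is unknown. In bulk RNA, fewer cells with a transcript and less RNA per cell cannot be told apart.

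RBMS1, on chromosome 2 at 160272151 to 160493807, had both of its curated RefSeq transcripts in the table. NM_016836 was given as −1.62 by the authors' deposited table, which is 32.5% of control. The other, NM_002897, was given as −1.36 by the authors' deposited table, which is 39.1% of control. These were the only 2 of the 7 transcripts lower by at least 1 on the log2 scale, a limit that 7.86% of all transcripts reached downwards and 8.27% upwards. Of the 20104 transcripts, 794 were lower than NM_016836 and 1059 were lower than NM_002897. Both RefSeq entries link to the same GENCODE model, of 14 exons and 4273 bases, so what sets them apart in sequence was not analysed here. That the targeted gene lies lower does not check the labels, because the sign was taken from it.

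**Figure D1:**
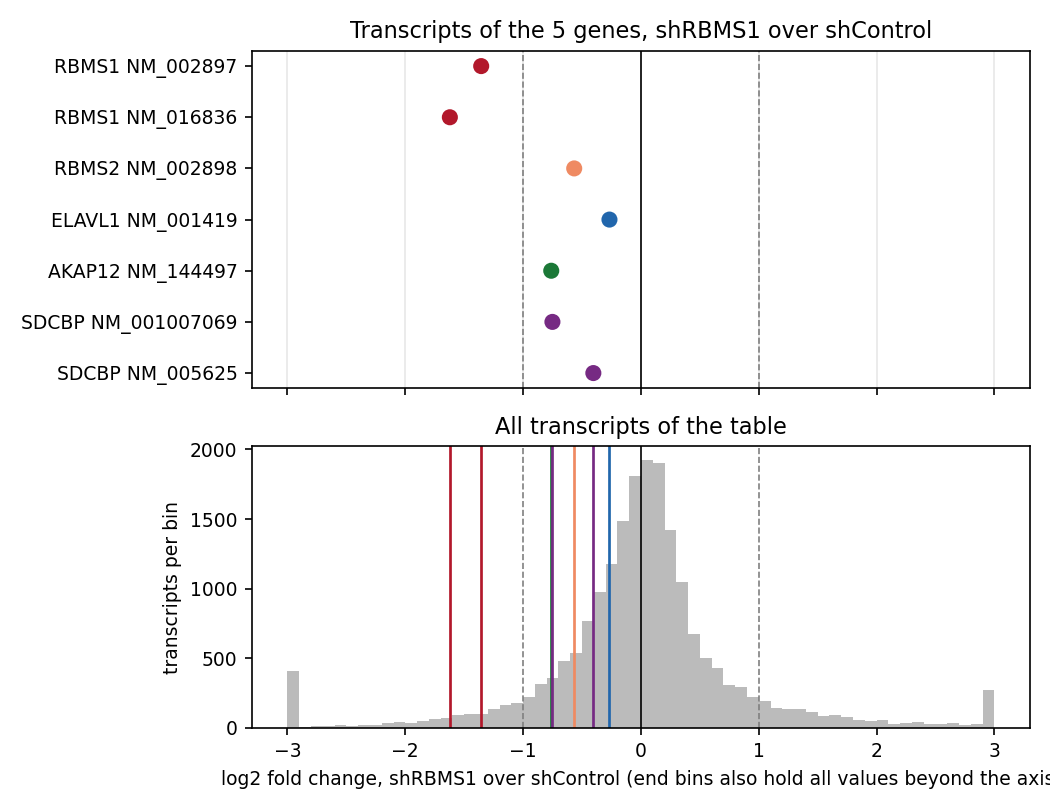
Log2 fold change (x axis) of the 7 transcripts of RBMS1, RBMS2, ELAVL1, AKAP12 and SDCBP, above a histogram of all 20104 transcripts (y axis, transcripts per bin of 0.1) on the same axis. Coloured lines repeat the 7 values, dashed lines mark −1 and 1, and only the RBMS1 transcripts lie beyond −1.

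Few genes had both transcripts as low as those of RBMS1. Among 2943 genes with 2 measured transcripts, 529 (18.0%) had 1 transcript lower by at least 1 and the other not, and in 372 of them the other lay above 0. Only 14 genes (0.476%) had both transcripts lower by at least 1, RBMS1 among them. In 9 of these genes, RBMS1 included, both transcripts lay at or below −1.36, the higher RBMS1 value in the authors' deposited table. Those of RBMS1 stood 0.27 apart, where the median distance over the 2943 genes was 0.70 and the quartiles were 0.29 and 1.41. A smaller distance than that of RBMS1 was found in 23.0% of these genes. The sources used here do not say how reads were shared between transcripts of 1 gene, and transcripts of a gene are not replicates.

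**Figure D2:**
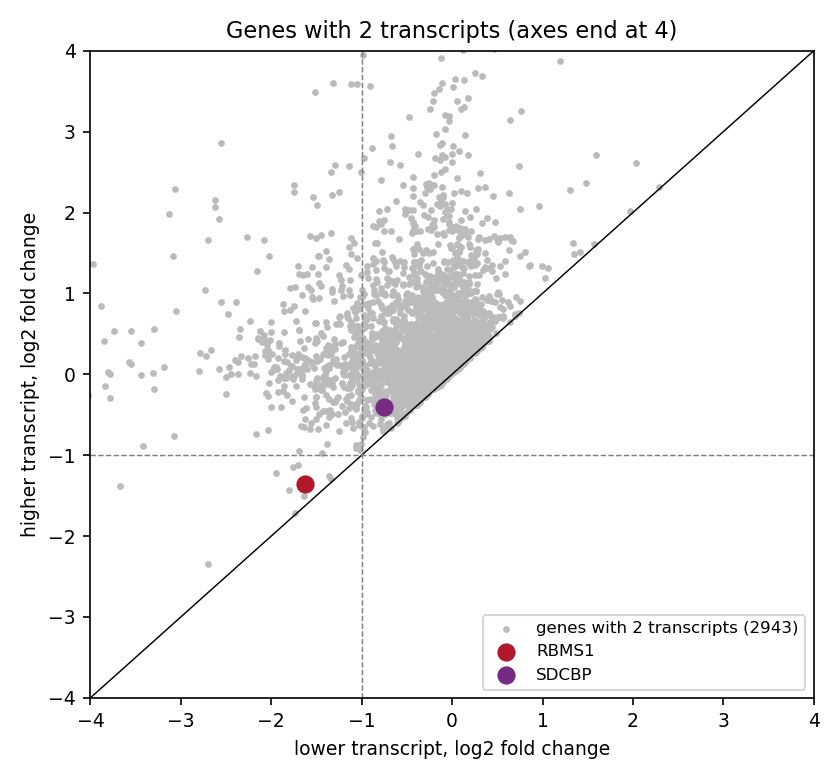
Each point is 1 of 2943 genes with 2 measured transcripts, with the lower transcript on the x axis and the higher on the y axis, both as log2 fold changes of knockdown over control. Genes beyond 4 on either axis are not drawn, the diagonal marks equal values, and RBMS1 and SDCBP are coloured; RBMS1 sits in the corner where both transcripts lie beyond −1, where 11 of the 14 such genes are drawn.

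RBMS2, on chromosome 12 at 56520405 to 56596193, is a close relative of RBMS1. Its 1 measured transcript, NM_002898, was at −0.57 in the authors' deposited table, or 67.5% of control. A share of 15.6% of all transcripts lay lower. RBMS2 thus stood 0.92 above the median of the RBMS1 transcripts on the log2 scale. The annotated end of RBMS2 overlaps the gene BAZ2A, on the opposite strand, by 598 bases, and the sources used here do not say if the counting used strand. BAZ2A was at −0.29 in the authors' deposited table. RBMS3, the remaining member of the family, had none of its 6 curated RefSeq transcripts in the table.

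How much sequence RBMS1 and RBMS2 share was read from their GENCODE 29 transcripts. Their coding sequences, of 1221 and 1224 bases, were identical at 819 of 1190 aligned bases (68.8%). The longest run that the whole transcripts share, 20 bases in the coding part of both and across an exon junction, was the following.
RBMS1 and RBMS2: atggcaaagcaacaggaaca
No stretch of 21 bases was common to both transcripts. Within the 3′ UTRs the longest shared run was 12 bases. The sequence of the hairpin used was not analysed here, so its match to RBMS2 was not tested.

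ELAVL1, on chromosome 19 at 7958573 to 8005641, has 1 curated RefSeq transcript, NM_001419, and it was the least changed of the 7. It was at −0.27 in the authors' deposited table, or 83.1% of control, and 27.8% of all transcripts lay lower. This value lies between the quartiles of all transcripts, −0.32 and 0.31. Of its relatives, which are mainly neuronal, only ELAVL2 had rows, NM_004432 at 1.51 and NM_001171195 at 9.96 in the authors' deposited table. The second of these is the highest value of the whole table. Read as knockdown over control, it could come from a level close to 0 in the control libraries, but levels were not analysed here. ELAVL3 and ELAVL4 had none of their curated RefSeq transcripts in the table.

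AKAP12, on chromosome 6 at 151239967 to 151358559, is represented by 1 of its 3 curated RefSeq transcripts. This transcript, NM_144497, was at −0.76 in the authors' deposited table, or 59.0% of control, and 11.2% of all transcripts lay lower. It starts inside the gene: the GENCODE model linked to it begins 85689 bases after the first AKAP12 start and codes for 1684 amino acids, against 1782 for the model from the first start. Their coding sequences run for 5055 and 5349 bases, and which exons they share was not analysed here. A value for transcripts from the first start was not analysed here.

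SDCBP, on chromosome 8 at 58553261 to 58582858, had 2 of its 9 curated RefSeq transcripts in the table. NM_001007069 was given as −0.75 by the authors' deposited table, which is 59.4% of control. The other, NM_005625, was given as −0.40 by the authors' deposited table, which is 75.6% of control. The linked GENCODE models differ by 3 bases of coding sequence, 894 against 897, and in the 5′ UTR, of 103 against 150 bases. Their 3′ UTRs, of 1106 and 1120 bases, are identical over the shorter length. The distance between them, 0.35 on the log2 scale, was smaller than the median of 0.70 over genes with 2 transcripts. Both transcripts lay at or below −0.40 in 110 of 2943 such genes (3.74%), SDCBP included. The next gene downstream, NSMAF, lies 645 bases away and the authors' deposited table gave −0.03 and 0.05 for its transcripts.

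AKAP12 and the lower SDCBP transcript differed by 0.01 on the log2 scale, and the transcripts of SDCBP by 0.35. With 1 knockdown library there is no measure of spread, so no order between the proposed targets can be read. For the same reason RBMS2 cannot be placed apart from them. Its value lies between those of the SDCBP transcripts. Lowering the limit to 0.5 on the log2 scale put 5 of the 7 transcripts past it, those of RBMS1, RBMS2 and AKAP12 and 1 of SDCBP. At that limit 17.4% of all transcripts were lower. AKAP12 and SDCBP are the study's own examples, so their direction is not independent evidence.

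The 3′ UTRs of the members differ widely in length and in motif content. ATATA was searched on the transcript strand alone, with overlapping matches each counted, and 8947 of 16809 3′ UTRs (53.2%) linked to the table hold at least 1. RBMS1 holds 1 site in 2621 bases, where 3′ UTRs within 10% of that length have a median of 4 sites, and 87.5% of them hold at least 1. In RBMS2 there are 10 sites in 7063 bases against a median of 12, and 97.8% of 3′ UTRs of like length hold at least 1. ELAVL1 has 4 sites in 4904 bases against a median of 7, and 96.1% of those of like length hold at least 1. SDCBP has 1 site, 629 bases after the stop codon of both transcripts, and 61.4% of 3′ UTRs as long as that of NM_001007069 hold at least 1. For RBMS1, RBMS2 and ELAVL1 the count was thus below the median for the length. Of the RBMS2 sites, 2 lie in the stretch that overlaps BAZ2A.

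AKAP12 is the member whose count turns on the gene model. The GENCODE model linked to NM_144497 ends at 151356773 and has a 3′ UTR of 1059 bases with 2 ATATA sites. Among 3′ UTRs within 10% of that length, 61.1% hold at least 1 site and 41.0% at least 2. The longest 3′ UTR annotated for AKAP12 in GENCODE ends at 151358557, close to the end of the gene in RefSeq, and runs for 2843 bases. It contains the shorter one whole and adds 1784 bases with 13 further sites, for 15 in all. Of 838 3′ UTRs within 10% of 2843 bases, 3.10% hold as many, and their median is 4. Several of these matches overlap in runs of alternating A and T, 3 of which are printed above. With overlapping matches counted once there are 8 separate stretches, and 15.3% of 3′ UTRs of like length hold as many. Which 3′ end the authors' annotation gave AKAP12, and which SW480 cells use, was not analysed here.

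**Figure D3:**
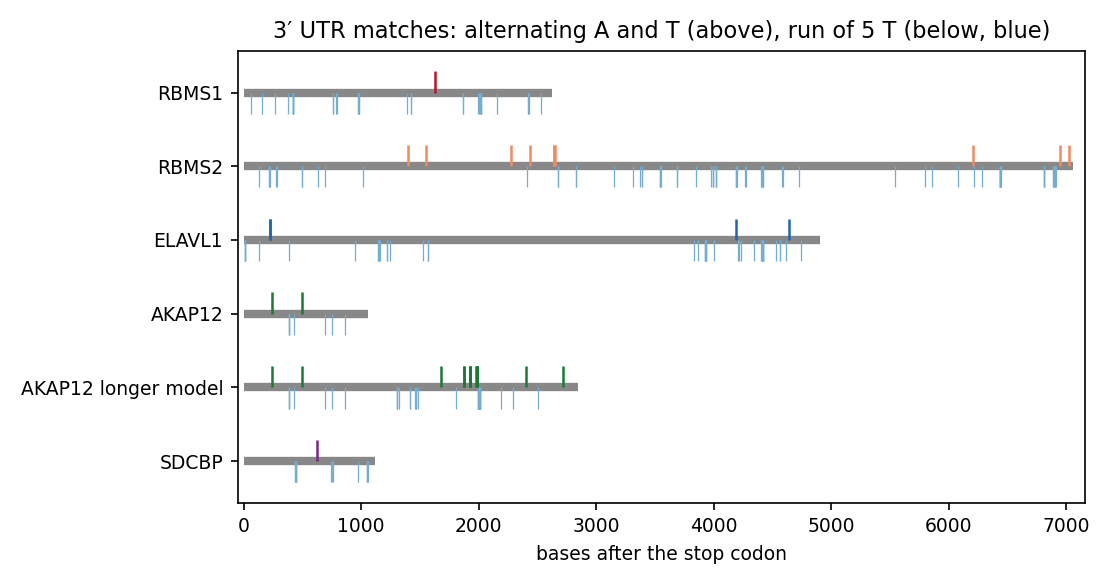
Each grey bar is the 3′ UTR of a GENCODE model, drawn to scale in bases after the stop codon (x axis), with ATATA matches as ticks above it and TTTTT matches as blue ticks below. The longer AKAP12 model carries 15 ATATA matches, most of them between 1677 and 1990 bases after the stop codon, and the shorter model linked to the measured transcript carries 2; for SDCBP the model linked to NM_005625 is drawn.

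Sequence of the kind ELAVL1 is known to bind was found in every member, and also in most 3′ UTRs of like length. TTTTT, also with overlapping matches each counted on the transcript strand, occurs in 74.7% of the 16809 3′ UTRs. Among 3′ UTRs of like length to those of the members, 87.6% to 100% hold at least 1. SDCBP has 14 matches in the 3′ UTR of either transcript, where 3′ UTRs of like length have a median of 6, and 17.3% of those as long as that of NM_001007069 hold as many. RBMS1 has 34 against a median of 19, RBMS2 76 against 58 and ELAVL1 45 against 38. The shorter AKAP12 model has 7 against a median of 5, with 43.1% of those of like length holding as many, and the longer one 38 against 20. Many of these matches overlap within longer runs of T. Counted once per run, SDCBP has 6 runs against a median of 4 for NM_001007069, and 28.6% of those of like length hold as many. By runs, the shorter AKAP12 model has 5 against 3, the longer one 15 against 11, RBMS1 21 against 10, RBMS2 44 against 30 and ELAVL1 25 against 19. In that order, 35.9%, 26.7%, 6.14%, 13.4% and 30.7% of 3′ UTRs of like length hold at least as many runs. The AU-rich pentamer ATTTA, the core of the classical decay element, occurs in 64.7% of the 3′ UTRs. It occurs 5 times in the shorter AKAP12 model against a median of 2, 2 times in SDCBP against 2, 6 times in RBMS1 against 5, 13 times in ELAVL1 against 11, and 3 times in RBMS2 against 17. A match is a description of the letters and not a binding site.

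Genes linked to the members were taken as 4 lists, each gene by the median of its transcripts. Over all 12582 genes the median was 0.01, 48.5% lay below 0, 3.96% reached the limit of 1 downwards and 3.95% upwards. Of 50 proteins that bind AU-rich or U-rich elements, 41 were measured, with a median of −0.13. Of these 28 lay below 0, and RBMS1 was the only 1 lower by at least 1. The list counts RBMS1, RBMS2 and ELAVL1 themselves, and without them 25 of 38 lay below 0, with a median of −0.086. Next to it came ZFP36L2, which recruits deadenylases to AU-rich mRNAs, at −0.74 in the authors' deposited table. The 3 genes higher by at least 1 were ELAVL2, the polyadenylation regulator CPEB4 and AUH, an enzyme that also binds AU-rich RNA, and the medians of the first 2 were 5.74 and 2.90 over transcripts of the authors' deposited table. Each of the 3 rests on transcripts far apart, and those of CPEB4 were at −2.10 and 7.91 and those of AUH at −0.10 and 2.22 in the authors' deposited table.

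Of 30 mRNAs that textbooks list as bound by ELAVL1, 27 were measured, with a median of 0.07. There were 12 below 0, and 0 reached the limit of 1 in either direction. The lowest was CCND1, the G1 cyclin D1, at −0.72 in the authors' deposited table. Highest were VEGFA, a growth factor for blood vessels, at 0.75 and the caspase inhibitor XIAP at 0.57, both as medians of rows of the authors' deposited table. When each gene was taken by its least changed transcript, the median of this list turned to −0.057.

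The list of AKAP12 partners holds kinases, calcineurin subunits, calmodulins and a few other proteins, and 19 of 20 were measured, with a median of −0.17. Below 0 there were 12, and at the limit of 1 there were 3 lower genes and 1 higher gene. PPP3CA, the catalytic subunit of calcineurin, was lowest at −5.02, the median of −9.79 and −0.26 in the authors' deposited table. B4GALT1, a galactosyltransferase, was at −1.22 and PRKACA, the main catalytic subunit of protein kinase A, at −1.21 in the authors' deposited table, each on 1 transcript. Another catalytic subunit, PRKACB, was at 0.58, and the regulatory subunit PRKAR1B was highest at 1.02, as medians of rows of the authors' deposited table. For PRKAR1B the authors' deposited table has 4 transcripts between −0.08 and 2.59.

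For SDCBP, 19 of 22 partners were measured, with a median of −0.01. There were 10 below 0, and at the limit of 1 there was 1 lower gene and 0 higher genes. The lowest was SDC4, a syndecan, at −1.54 in the authors' deposited table, followed by the syndecan SDC3 at −0.96, each on 1 transcript. SDC1, the remaining syndecan measured, had a median of −0.48, from −0.90 and −0.06 in the authors' deposited table. Highest were the ephrin EFNB2 at 0.63 and the tetraspanin TSPAN6 at 0.61, the latter as the median of 0.12 and 1.10 in the authors' deposited table. The median of this list changed sign with other ways to take 1 value per gene, to 0.021 with the mean and 0.056 with the least changed transcript.

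**Figure D4:**
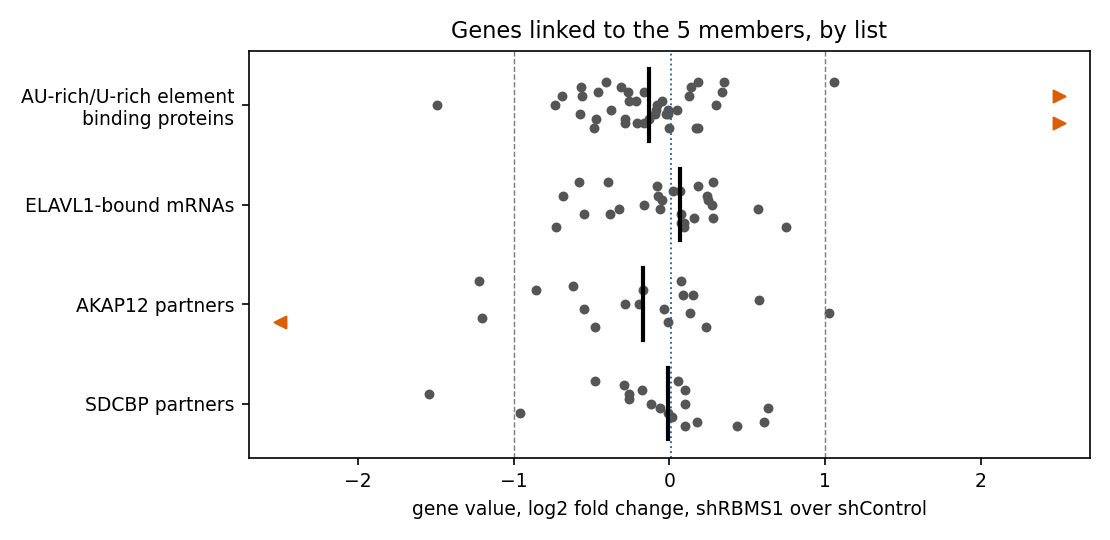
Each point is a gene of 1 of 4 lists, placed by the median log2 fold change of its transcripts (x axis), with black bars at the list medians of −0.13, 0.07, −0.17 and −0.01 from top to bottom. Arrowheads are genes beyond 2.5, the dotted line is the median of all genes at 0.01, and dashed lines mark −1 and 1; most genes of each list lie between the dashed lines.

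Most measured markers of the labelled cell type lay on the same side as the members. Of 10 colon epithelium markers 7 were measured, with a median of −0.43, 6 below 0 and 2 lower by at least 1. KRT18, 1 of these 2, had a median of −1.09, from −2.17 and −0.02 in the authors' deposited table. The villus protein gene VIL1 was lowest at −2.33 and KRT8 highest at 0.05 in the authors' deposited table, the latter by median. Of the leukocyte markers 2 of 6 had rows, CD68 at −0.54 and LYZ at −0.68 in the authors' deposited table. None of the 6 fibroblast and 5 endothelial markers had a value used here. Levels of these markers were not analysed here. Fold changes alone do not show which cell type is present, so the cell type was not checked. The part of the marker shifts in the members' values was not tested.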

How the data were processed

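Total RNA of 3 SW480 libraries (2 shControl, 1 shRBMS1) was depleted of ribosomal RNA, made into ScriptSeq libraries and read on a NextSeq, per the labels' protocols. STAR 2.5, Cufflinks, Cuffdiff and hg38 are named without roles or settings, per the submitters' processing notes. The authors deposited 1 log fold change per RefSeq transcript, read here as log2 of knockdown over control; the sources used here name no filters, and neither counts nor levels were analysed, so the depth is unknown.

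The header gives neither base nor direction. Base 2 was taken from repeated values: a distance of 1 (tolerance 1.5e-05) from values present 3 or more times was found for 20 transcripts, against 4 for ln 2, 5 for log10 of 2 and at most 15 over 100 evenly spaced distances. The direction was taken from RBMS1.

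Symbols came from RefSeq (GRCh38.p14, that is hg38) and were found for 19818 of 20104 transcripts (98.6%). Transcripts were combined into genes by their median. Transcript models and 3′ UTRs came from GENCODE 29 through its RefSeq links. Counts used a limit of 1 on the log2 scale, with no test. Named were all transcripts of the members, other RBMS and ELAVL genes, and up to 2 genes at each end of each list, of which 1 is not reported here; AUH, PRKACA, BAZ2A, NSMAF and single markers were named after their values were seen. Members and lists were chosen with earlier results of these data known. Alternatives were other limits, values per gene, centring, motifs and gene models. Counting and motif functions were tested on simulated data. Python 3.11.15, pandas 2.3.3 and biopython 1.88 were used.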

Additional observations from a re-analysis of the deposited data

How the results depend on the processing

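Every member transcript and gene kept its direction under each alternative tried, but these alternatives could not have turned it. The medians used for centring were only 0.017 for transcripts and 0.012 for genes. RBMS2, ELAVL1 and AKAP12 have 1 transcript each, and both transcripts of RBMS1 and of SDCBP lay below 0. Centring on the median of all transcripts moved the RBMS1 transcripts to −1.37 and −1.64, RBMS2 to −0.58, ELAVL1 to −0.28, AKAP12 to −0.78 and the SDCBP transcripts to −0.77 and −0.42. By gene, centring gave −1.50 for RBMS1, −0.58 for RBMS2, −0.28 for ELAVL1, −0.77 for AKAP12 and −0.59 for SDCBP. With the least changed transcript RBMS1 was at −1.36 and SDCBP at −0.40, and with the longest transcript SDCBP was also at −0.40; RBMS1 has no longest transcript, since both link to 1 model. At a limit of 0.5 on the log2 scale 5 members were lower, with 17.4% of the table lower and 17.0% higher, and at 2 there were 0 members, with 2.94% and 2.87% of the table.

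At 0.5, 12.9% of all genes were lower and 10.2% higher, against 6 AU-rich and U-rich element binding proteins lower and 3 higher. At the same limit 4 ELAVL1-bound mRNAs were lower and 2 higher, 6 AKAP12 partners lower and 2 higher, and 2 SDCBP partners lower and 2 higher. Centring moved the list medians to −0.14, 0.060, −0.18 and −0.022. The median of the binding proteins was −0.083 with the mean of transcripts and −0.078 with the least changed one. Leaving out the members, chosen after seeing the data, put it at −0.086, with 0 of the remaining proteins lower by at least 1. For ELAVL1-bound mRNAs the sign turned with the least changed transcript (−0.057), and for SDCBP partners with the mean (0.021) and the least changed transcript (0.056).

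Motif counts depend on the motif and the model. TATATA gave 0 sites in RBMS1, 4 in RBMS2, 2 in ELAVL1, 1 in AKAP12 and 0 in SDCBP. ATTTA gave 6, 3, 13, 5 and 2 in that order, and TTTTT 34, 76, 45, 7 and 14. The longest 3′ UTR of AKAP12 gave 15 ATATA sites. Counting overlapping matches once, chosen after seeing the data, gave 8 in RBMS2 and 3 in ELAVL1. The same for TTTTT gave 21, 44, 25, 5 and 6 in the order above. No paired analysis was possible because the deposited values are 1 fold change per transcript, with no value per library. Leaving out a library was not possible for the same reason.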
